A study of Mus musculus with 16 samples.

Results

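The genes described here encode the proteins of the tectorial membrane and of the extracellular matrix around the cochlear epithelium. They are Tecta, Tectb, Ceacam16, Otog, Otogl, Otoa, Otos, Epyc and Coch, a list of 9 given symbols that was matched to the gene names in the authors' normalized table. Of the 9 symbols 8 were among the 21220 genes of that table. Ceacam16 was not, and was looked up by its Ensembl identifier among the 48709 genes of the count files. The 8 others passed the filter on low counts and were tested among 17125 genes, and Ceacam16 passed it only in counts summed over strands.

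The libraries came from cultures of the organ of Corti, which carries the hair cells of the cochlea, taken from C57BL/6 mice at postnatal day 0 and kept for 3.5 days in culture on Matrigel. Each group had 4 libraries. The groups were Rest heterozygous cultures with FK228, wild-type cultures with FK228, Rest heterozygous cultures with solvent and wild-type cultures with solvent. The heterozygous mice carried 1 Rest allele that lacks exon 4, written Rest(+/deltaExon4) in the labels. REST silences neuronal genes outside neurons and works together with histone deacetylases. FK228 (romidepsin) inhibits class I histone deacetylases, and was given at 2 nM from day 1 to day 1.5 and again from day 3 to day 3.5 in vitro. The solvent was 0.1% DMSO. A library is a pool of 6 to 8 cultures. Whether pools shared a litter is not stated, and p-values therefore cover only the spread among the pools.

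The tectorial membrane is an acellular gel that lies over the hair cells and stimulates their bundles when sound moves the cochlear partition. It is secreted by supporting and limbal cells of the cochlear epithelium while the organ of Corti matures. Collagen fibrils run through a striated sheet made of the tectorins TECTA and TECTB together with CEACAM16, the otogelins are large glycoproteins of the same gel, and otoancorin anchors it to the spiral limbus. Otospiralin and cochlin are products of the fibrocytes of the limbus and the spiral ligament, and epiphycan is a small leucine-rich proteoglycan made by cochlear supporting cells. Variants in human TECTA, OTOA, OTOG, OTOGL, CEACAM16 and COCH are known causes of inherited hearing loss.

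Depth was 12361027 to 23611571 gene counts per library, and levels are given in CPM, the count of a gene relative to the TMM-scaled total of its library. The tissue label was checked against marker genes. All 16 supporting cell markers averaged over 1 CPM in each group, as did 13 to 15 of 15 hair cell markers. Markers of mesenchyme, neurons, Schwann cells, macrophages and cartilage were also present, so the libraries were not of epithelium alone. Of 5 vestibular epithelium markers 3 to 4 averaged over 1 CPM. Their mean sums were 923 to 1069 CPM over the groups, beside 522 to 773 CPM for hair cell markers. Reads of a gene therefore cannot be assigned to the cochlear epithelium alone. In bulk RNA fewer cells of a type and less RNA per cell cannot be told apart. Rest itself had 75.8 to 87.3 CPM in heterozygous cultures with FK228 and 69.9 to 79.9 CPM in wild-type cultures with FK228, and 78.1 to 94.8 CPM in heterozygous cultures with solvent, against 75.2 to 86.4 CPM in wild type with solvent. These whole-gene counts include the exons outside the deletion and so do not check the genotype. Among the solvent libraries 2 stood apart, heterozygous replicate 4 and wild-type replicate 1, with 10.4% and 10.8% of reads in no gene, against 12.9% in heterozygous solvent replicate 5 and 16.2% to 20.8% in the other 13 libraries. Heterozygous solvent replicate 4 was the highest of its group for 8 of the 8 genes tested, and wild-type solvent replicate 1 for 4 of the 8. Calls among the 8 genes tested that change without these libraries are given with and without them.

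The upstream sequences of the genes that moved with FK228 are shown first, since REST is a DNA-binding repressor. They come from RefSeq, whose table matched 7 of the 9 genes, all but Otogl and Ceacam16. They are the 250 bases before the RefSeq start of Otos (chr1:92648842-92649091, minus strand), Tectb (chr19:55180476-55180725, plus strand) and Epyc (chr10:97643818-97644067, plus strand) on GRCm38.p6, 5′ to 3′ on the gene's strand. Capitals mark matches on either strand to motif letters.
Otos: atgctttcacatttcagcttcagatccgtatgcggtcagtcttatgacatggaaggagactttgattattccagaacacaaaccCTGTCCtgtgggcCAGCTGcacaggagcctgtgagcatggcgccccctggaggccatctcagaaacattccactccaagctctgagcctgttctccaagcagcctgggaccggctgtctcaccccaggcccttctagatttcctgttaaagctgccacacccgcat
Tectb: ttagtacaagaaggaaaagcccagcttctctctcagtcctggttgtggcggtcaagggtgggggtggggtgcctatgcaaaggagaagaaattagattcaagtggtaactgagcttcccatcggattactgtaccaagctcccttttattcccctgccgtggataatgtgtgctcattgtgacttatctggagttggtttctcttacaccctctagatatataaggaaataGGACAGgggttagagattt
Epyc: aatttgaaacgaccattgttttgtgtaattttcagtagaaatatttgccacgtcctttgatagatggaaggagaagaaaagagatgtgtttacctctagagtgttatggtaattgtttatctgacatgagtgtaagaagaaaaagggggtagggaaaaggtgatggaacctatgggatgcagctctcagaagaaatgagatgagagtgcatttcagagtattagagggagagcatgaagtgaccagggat

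Motif letters were searched on both strands, and the share of all 32851 windows of this length that hold each is given as background. The full RE1, the element bound by REST, was in 1 window (0.00304%). Its left part, TTCAGCACC, was in 0.301% of windows. Its right part, which the full element also holds and which reads GGACAG, was found far more often, in 18.7%. The TATA box, with the letters TATAAA, was in 12.4% of windows. The CCAAT box, searched by the letters of its name, was in 33.8%. The E-box with the letters CAGCTG was in 13% of windows. RefSeq lists 2 starts each for Tecta and Epyc, and the window used is the one nearest to the GENCODE M21 start. The others lay 1761 bases upstream of it for Tecta and 3035 bases downstream of it for Epyc, and held none of the letters searched. Neither the full RE1 nor its left part was in any of the 7 windows used. The right part was in those of Otos, Tectb and Otoa, the E-box in that of Otos, and the CCAAT box in those of Otoa and Otog. The Epyc, Tecta and Coch windows held none of the letters searched. The RefSeq start of Otoa lay 1774 bases downstream of the GENCODE M21 start, so its window lies inside the gene by that annotation.

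Levels differed widely between the genes. Per kilobase of exons in wild-type cultures with FK228, Epyc averaged 486 CPM, Tectb 390, Coch 161, Tecta 64.3, Otoa 25.2, Otos 10.1, Otog 4.21 and Otogl 0.625. With solvent the wild-type means per kilobase were 576 CPM for Epyc, 276 for Tectb, 140 for Coch, 66.2 for Tecta, 24.5 for Otoa, 45.0 for Otos, 3.62 for Otog and 0.858 for Otogl. Otos was thus below Otoa with FK228 and above it with solvent in wild type, although with the longest transcript as the length Otos was below Otoa in wild-type solvent as well, at 46.4 CPM per kilobase for Otos and 47.5 for Otoa. By CPM over all libraries Epyc ranked 57 of the 17125 genes tested and Tectb 83, while Otogl ranked 10922.

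**Figure D1:**
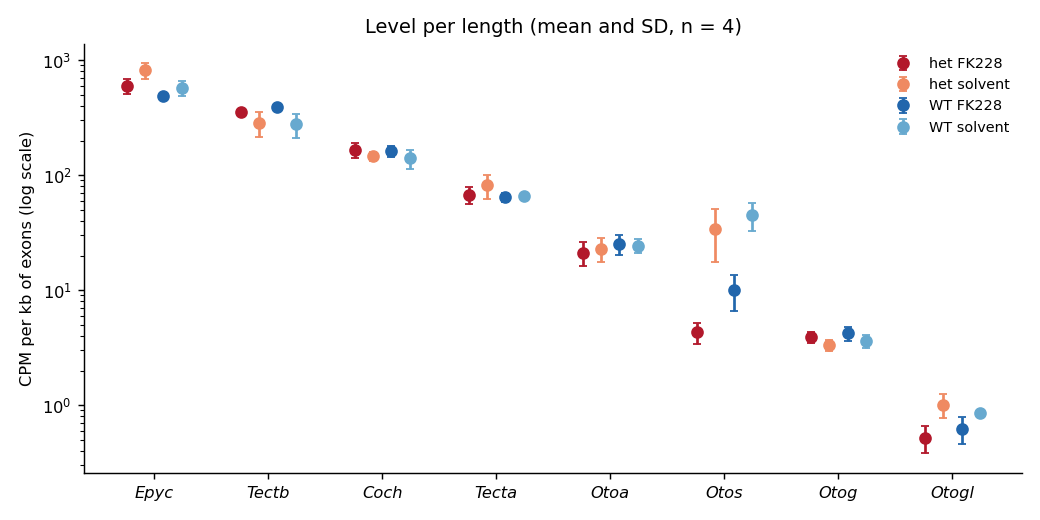
Mean level of each gene per kilobase of exons (CPM, log scale) in the 4 groups, with SD over 4 libraries; het is Rest heterozygous and WT wild type. The level of Otos differs most between groups, at 4.30 CPM per kilobase in heterozygous cultures with FK228 and 45.0 in wild-type cultures with solvent.

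Ceacam16 (ENSMUSG00000014686, chr7:19852097-19861299, minus strand, GRCm38), the partner of the tectorins in the striated sheet, was near the limit of detection. Its count was 4, 0, 0 and 2 in heterozygous cultures with FK228, 0, 0, 1 and 4 in wild-type cultures with FK228, 3, 0, 0 and 0 in heterozygous cultures with solvent, and 0, 2, 1 and 0 in wild-type cultures with solvent. These are the unstranded counts, in which no library held more than 4 and which did not pass the filter. The gene overlaps Gm19345 on the other strand, and the unstranded column leaves out reads that fall on both genes. The deposited counts by strand keep them, and summed over both strands Ceacam16 had 10, 6, 1 and 11 in heterozygous cultures with FK228, against 3, 0, 0 and 0 with solvent. In wild-type cultures the sums were 2, 7, 15 and 13 with FK228, against 1, 3, 1 and 0 with solvent. Most FK228 libraries were above all solvent libraries, with 1 FK228 library in each genotype among them. In edgeR's test on these sums, an alternative added after their values were seen, Ceacam16 was higher with FK228 in heterozygous (adjusted p = 0.0160) and wild-type cultures (adjusted p = 0.0121), where 8804 and 8934 of 18306 genes passed. On the unstranded counts with no filter it did not pass (adjusted p = 0.665 and 0.772 in the same order). No fold is given, since the solvent counts are at the limit of detection. Summed over strands, Gm19345 had 11, 13, 3 and 11 with FK228 in heterozygous cultures, against 2, 0, 0 and 0 with solvent, and 4, 18, 20 and 16 with FK228 in wild type, against 2, 4, 2 and 0 with solvent. The libraries do not keep strand, so reads on the overlap of Ceacam16 and Gm19345 cannot be told apart. In the unstranded counts, which leave those reads out, Gm19345 had 5, 7, 2 and 2 with FK228 in heterozygous cultures, against 2, 0, 0 and 0 with solvent. In wild type it had 2, 11, 6 and 7 with FK228, against 1, 3, 2 and 0 with solvent. Which gene the reads on the overlap came from was not tested.

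With FK228, Otos, Otogl and Epyc fell in heterozygous cultures, and Otos fell and Tectb rose in wild-type cultures. In heterozygous cultures 0 of the 8 genes tested rose, 3 fell and 5 did not pass the test, where 48.4% of all genes passed, 23.8% higher and 24.7% lower. In wild type 1 of 8 rose, 1 fell and 6 did not pass, where 49% of all genes passed, 23.7% higher and 25.3% lower. The median log2 fold change of the 8 was -0.20 in heterozygous cultures and 0.00 in wild type, beside 0.00 and -0.01 over all genes. Libraries of the compared groups did not overlap for 3 of 8 genes in heterozygous cultures (42.6% of all genes) and for 3 of 8 in wild type (44.7% of all genes). Calls here and in the rest of the text are at an adjusted p under 0.05 in edgeR's quasi-likelihood test, and directions are relative to the bulk of genes. With scaling to the ERCC spike-ins instead, the median of all genes moved to -0.72 in heterozygous cultures and -0.16 in wild type. Of the calls 7% were then higher in heterozygous cultures, against 49.0% with TMM scaling, and 30.8% in wild type, against 48.4%.

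**Figure D2:**
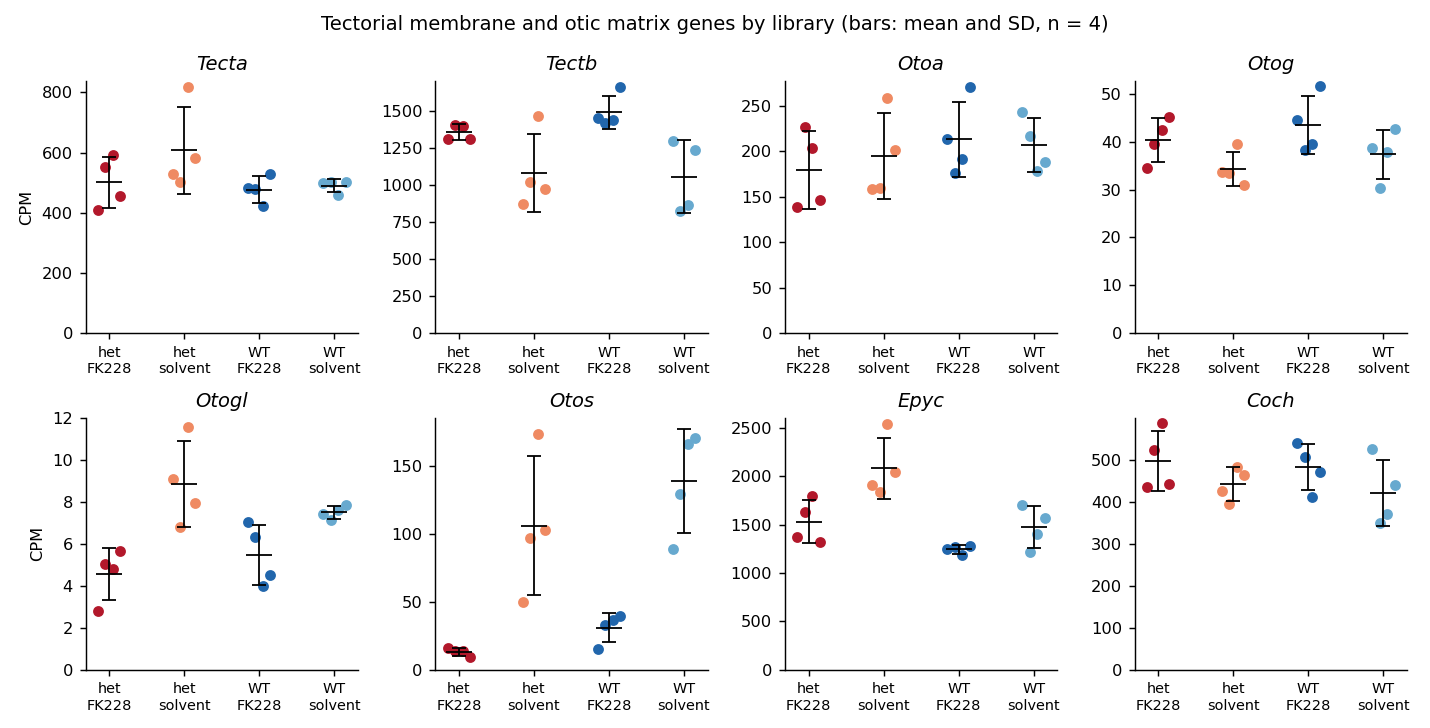
CPM of the 8 tested genes in each library (points), with mean and SD of 4 libraries (bars), for Rest heterozygous (het) and wild-type (WT) cultures. The Otos points with FK228 all lie below those with solvent of the same genotype, and Rest heterozygous solvent replicate 4, the highest point of its group in every panel, reached 817 CPM for Tecta.

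Markers of the cells in the cultures moved with FK228 too. Of 16 supporting cell markers 0 rose and 10 fell in heterozygous cultures and 1 rose and 9 fell in wild type. Their summed level was 1955 to 2214 CPM with FK228, against 2643 to 3380 CPM with solvent in heterozygous cultures, and 2052 to 2514 CPM with FK228, against 2639 to 3155 CPM with solvent in wild type. Of 12 mesenchyme and fibrocyte markers 1 rose and 9 fell in either genotype. Their sum was 1303 to 1624 CPM with FK228, against 2822 to 4209 CPM with solvent in heterozygous cultures, and 1530 to 1844 CPM with FK228, against 2996 to 3791 CPM with solvent in wild type. All 8 macrophage markers fell in both genotypes, to sums of 29.8 to 33.5 CPM with FK228, against 241 to 363 CPM with solvent in heterozygous cultures, and 43.1 to 56.3 CPM with FK228, against 351 to 437 CPM with solvent in wild type. No marker of these 3 lists was at 0 in any group. In heterozygous cultures with FK228, 1 of 15 hair cell markers rose and 7 fell, 4 of 8 neuronal markers rose and 1 fell, 5 of 6 Schwann cell markers fell, 1 of 6 cartilage markers rose and 2 fell, and 1 of 4 vestibular markers rose. In wild type 1 hair cell marker rose and 8 fell, 2 neuronal markers rose and 2 fell, 4 Schwann cell markers fell, 1 cartilage marker rose and 2 fell, and 1 vestibular marker fell. Without the 2 solvent libraries that stood apart, 5 neuronal markers rose and 1 fell in either genotype. Of the mesenchyme markers 0 then rose and 10 fell in heterozygous cultures. Supporting cell markers then fell for 9 and 8, and hair cell markers for 6 and 7, in heterozygous and wild-type cultures. Between genotypes, 3 of 15 hair cell markers were lower in heterozygous cultures with either treatment, 6 of 8 neuronal markers with solvent and 3 of 8 with FK228, 1 of 8 macrophage markers with FK228, and 0 of the supporting cell, mesenchyme, Schwann cell, cartilage and vestibular markers with either. The part of any of these shifts in the results for Otos, Otogl, Epyc and Tectb was not tested.

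TECTA is the large tectorin of the striated sheet, and its gene (chr9:42329619-42399929, minus strand) overlaps Gm47629 on the other strand. Tecta had 409, 552, 591 and 455 CPM in heterozygous cultures with FK228, against 528, 501, 817 and 583 CPM in heterozygous cultures with solvent. In wild-type cultures it had 481, 477, 421 and 528 CPM with FK228, against 499.6, 502, 459 and 501 CPM with solvent. The groups overlapped in both genotypes, and a single heterozygous solvent library was far above all others. The log2 fold change was -0.28 ± 0.13 (SE) in heterozygous cultures (adjusted p = 0.0956) and -0.04 ± 0.13 in wild-type cultures (adjusted p = 0.825). Without heterozygous solvent replicate 2 the fall in heterozygous cultures passed the test (adjusted p = 0.0397), as it did without heterozygous FK228 replicate 4 (adjusted p = 0.0411). Without heterozygous solvent replicate 4, the library with 817 CPM, the log2 fold change was -0.10 (adjusted p = 0.481).

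TECTB is the smaller tectorin. Tectb (chr19:55180733-55196313, plus strand) had 1309, 1405, 1396 and 1309.5 CPM in heterozygous cultures with FK228, against 873, 1019, 1466 and 969 CPM with solvent. In wild-type cultures it had 1449.6, 1416, 1435 and 1659 CPM with FK228, against 1293, 822, 867 and 1238 CPM with solvent. Every wild-type FK228 library was above every wild-type solvent library, whereas in heterozygous cultures solvent replicate 4 was above all FK228 libraries. In heterozygous cultures the log2 fold change of 0.32 ± 0.15 did not pass (adjusted p = 0.0789), and it was 0.51 without solvent replicate 4 (adjusted p = 0.00373). Tectb rose in wild type by a log2 fold change of 0.50 ± 0.15, which is 1.41-fold (95% interval 1.14 to 1.75, adjusted p = 0.00967). With spike-in scaling it was -0.36 in heterozygous cultures (adjusted p = 0.0172), which lay 0.35 above the median of all genes on that scale, and 0.37 in wild type (adjusted p = 0.0285). The spread between libraries was smaller with FK228, a difference that was not tested, with a coefficient of variation of 3.90% and 7.61% with FK228 in heterozygous and wild-type cultures, against 24.3% and 23.2% with solvent. The heterozygous solvent value includes replicate 4, at 1466 CPM beside 873, 1019 and 969 CPM. Over the genes above 30 CPM the median coefficient was 7.24% and 7.53% with FK228, against 8.81% and 8.72% with solvent, in the same order.

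Otogelin and otogelin-like are large mucin-like glycoproteins of the membrane. Otog (chr7:46240987-46311434, plus strand) averaged 40.4 ± 4.58 CPM (SD, n = 4) in heterozygous cultures with FK228 and 34.4 ± 3.60 CPM with solvent. In wild type it averaged 43.6 ± 6.04 CPM with FK228 and 37.4 ± 5.14 CPM with solvent. The libraries overlapped, and the log2 fold changes of 0.23 ± 0.12 in heterozygous (adjusted p = 0.120) and 0.22 ± 0.12 in wild-type cultures (adjusted p = 0.135) did not pass.

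Otogl (chr10:107760531-107912134, minus strand) was the lowest of the tested genes, with 37 to 172 counts per library. It had 2.80, 5.03, 4.80 and 5.67 CPM in heterozygous cultures with FK228, against 9.09, 6.81, 11.6 and 7.94 CPM with solvent. In wild-type cultures it had 7.04, 6.35, 3.99 and 4.53 CPM with FK228, against 7.41, 7.15, 7.63 and 7.87 CPM with solvent. All FK228 libraries were below all solvent libraries of their genotype. Otogl fell in heterozygous cultures by 0.95 ± 0.22 on the log2 scale, which is 1.93-fold (95% interval 1.40 to 2.68, adjusted p = 0.00178). In wild type the log2 fold change was -0.46 ± 0.22 (adjusted p = 0.0912), and without FK228 replicate 1 it was -0.60 (adjusted p = 0.0442).

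Otoancorin is the protein at the apical surface of the limbal interdental cells to which the membrane is attached. Otoa (chr7:121081650-121163097, plus strand) averaged 179 ± 43.0 CPM in heterozygous cultures with FK228 and 194 ± 47.3 CPM with solvent. In wild type it averaged 213 ± 41.3 CPM with FK228 and 206 ± 29.5 CPM with solvent (SD, n = 4 each). The groups overlapped, and the log2 fold changes were -0.12 ± 0.18 in heterozygous (adjusted p = 0.609) and 0.04 ± 0.18 in wild-type cultures (adjusted p = 0.858). The 95% interval of the fold with FK228 was 0.712 to 1.19 in heterozygous and 0.797 to 1.33 in wild-type cultures.

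Otospiralin, a small protein of cochlear fibrocytes, gave the largest response among the 8 genes in both genotypes. Otos (chr1:92644218-92648841, minus strand) had 16.3, 13.7, 13.7 and 9.36 CPM in heterozygous cultures with FK228, against 49.8, 97.1, 173 and 103 CPM with solvent. In wild-type cultures it had 15.3, 33.0, 36.5 and 39.1 CPM with FK228, against 88.6, 129, 166 and 171 CPM with solvent. No FK228 library reached any solvent library, and the solvent groups were themselves widely spread. Otos fell by 2.99 ± 0.34 on the log2 scale in heterozygous cultures, which is 7.96-fold (95% interval 4.85 to 13.1, adjusted p = 1.12e-06). In wild type it fell by 2.16 ± 0.32, which is 4.47-fold (95% interval 2.82 to 7.11, adjusted p = 2.13e-05). The call held in 16 of 16 fits that left out 1 library, with log2 fold changes of -3.23 to -2.65 in heterozygous and -2.33 to -1.93 in wild-type cultures.

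Epiphycan belongs to a proteoglycan family that binds collagen fibrils. Epyc (chr10:97644068-97682454, plus strand) overlaps Gm10754 on the other strand, which had no unstranded count in any library. That column leaves out reads that fall on both genes. In heterozygous solvent replicate 1, for example, Epyc had 27483 counts summed over strands and 27383 unstranded. Epyc had 1373, 1634, 1793 and 1320.0 CPM in heterozygous cultures with FK228, against 1914, 1838, 2538 and 2048 CPM with solvent. In wild-type cultures it had 1244, 1271, 1183 and 1278 CPM with FK228, against 1708, 1216, 1404 and 1573 CPM with solvent. The heterozygous groups did not overlap, and in wild type only solvent replicate 2 lay among the FK228 libraries. Epyc fell in heterozygous cultures by 0.45 ± 0.12 on the log2 scale, which is 1.36-fold (95% interval 1.15 to 1.61, adjusted p = 0.00370). In wild type the log2 fold change was -0.25 ± 0.12 (adjusted p = 0.0854), without solvent replicate 2 it was -0.33 (adjusted p = 0.0270), and without the 2 solvent libraries that stood apart -0.16 (adjusted p = 0.202).

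Cochlin is an abundant protein of the limbus and spiral ligament with von Willebrand A domains. Coch (chr12:51593341-51605771, plus strand) averaged 496 ± 72.1 CPM in heterozygous cultures with FK228 and 442 ± 39.5 CPM with solvent. In wild type it averaged 482 ± 54.7 CPM with FK228 and 421 ± 79.0 CPM with solvent (SD, n = 4 each). The groups overlapped, and the log2 fold changes were 0.17 ± 0.12 in heterozygous (adjusted p = 0.276) and 0.20 ± 0.12 in wild-type cultures (adjusted p = 0.199). In wild type it was 0.32 without solvent replicate 1 (adjusted p = 0.0325).

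**Figure D3:**
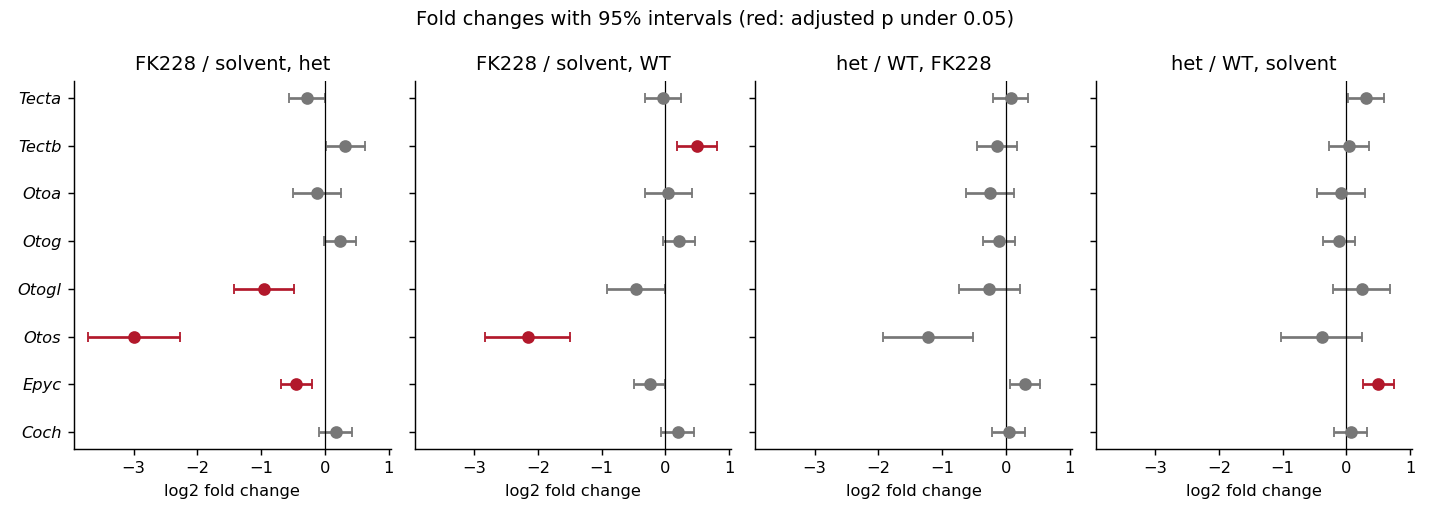
Log2 fold change (points) and 95% interval (bars) of each tested gene in 4 comparisons, red where the adjusted p was under 0.05. Otos lies at -2.99 and -2.16 with FK228 in heterozygous and wild-type cultures, and Epyc is the 1 red point between genotypes.

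Between genotypes with solvent, Epyc was higher in heterozygous cultures. Its CPM values above put every heterozygous solvent library over every wild-type solvent library. Epyc averaged 2084 ± 315 CPM in heterozygous cultures, against 1476 ± 213 CPM in wild type (SD, n = 4 each), a log2 fold change of 0.50 ± 0.12 or 1.41-fold (95% interval 1.19 to 1.67, adjusted p = 0.0277). Of the 8 genes tested 1 rose, 0 fell and 7 did not pass, where 2.03% of all genes passed and 1.2% were higher, and groups did not overlap for 1 of 8 genes (6.23% of all genes). The call was lost without heterozygous solvent replicate 4 (0.39, adjusted p = 0.0893) or replicate 5 (0.51, adjusted p = 0.0501) and without wild-type solvent replicate 2 (0.42, adjusted p = 0.101) or replicate 3 (0.47, adjusted p = 0.0908). It was also lost in a fit of the solvent groups alone (adjusted p = 0.0680) and with spike-in scaling (0.32, adjusted p = 0.262). The call held in 12 of 16 fits that left out 1 library and in 12 of 14 other alternatives. One of these left out the 2 solvent libraries that stood apart (0.47, adjusted p = 0.0349). The next change in size was that of Otos, at -0.39 ± 0.30 with overlapping groups (adjusted p = 0.737). It was -0.74 without heterozygous solvent replicate 4 (adjusted p = 0.275), -0.16 without heterozygous solvent replicate 1 (adjusted p = 0.953) and -0.89 without the 2 solvent libraries that stood apart (adjusted p = 0.166). The log2 fold change of Tecta was 0.31 ± 0.13 with overlapping groups (adjusted p = 0.363). Unadjusted p-values were under 0.05 for 2 of the 8 genes, Epyc and Tecta, and for 1936 of the 17125 genes.

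With FK228, no gene of the 8 passed between genotypes in edgeR's test, where 2.14% of all genes passed. Unadjusted p-values were under 0.05 for 2 of the 8 and for 2210 of the 17125 genes. DESeq2 called 1 of the 8 and 638 genes in all. Otos averaged 13.3 ± 2.86 CPM in heterozygous cultures with FK228, against 31.0 ± 10.8 CPM in wild type with FK228 (SD, n = 4 each). The libraries overlapped only through wild-type replicate 1, which was below the highest heterozygous library. The log2 fold change was -1.22 ± 0.34 (adjusted p = 0.0679), with adjusted p-values over its alternatives between 6.70e-05 with spike-in scaling and 0.195 with 1 library left out. It passed in DESeq2 (0.0346), without wild-type FK228 replicate 1 (0.0285) and without the 2 solvent libraries that stood apart (0.0191). It also passed without heterozygous solvent replicate 1 (0.0266) or replicate 4 (0.0299). Solvent libraries are not in this comparison, and without any of these the log2 fold change stayed at -1.22. Otos passed in 3 of the 16 fits that left out 1 library and in 7 of 14 other alternatives. Epyc had a log2 fold change of 0.30 ± 0.12 (adjusted p = 0.252) and Tectb of -0.14 ± 0.15 (adjusted p = 0.798). Their groups did not overlap, making 2 of 8 genes beside 8.84% of all genes.

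The difference between the FK228 effects of the genotypes was tested as an interaction. It passed for 0 of the 8 genes and for 0.0234% of all genes. Unadjusted p-values were under 0.05 for 0 of the 8, beside 995 of the 17125 genes. The Otos effect was lower in heterozygous cultures by 0.83 ± 0.45 on the log2 scale (95% interval of the difference -1.77 to 0.11, adjusted p = 0.891), and the Otogl effect by 0.50 ± 0.31 (-1.15 to 0.16, adjusted p = 0.925). The Otos difference was -0.48 without heterozygous solvent replicate 4 (adjusted p = 0.874) and -0.33 without the 2 solvent libraries that stood apart (adjusted p = 0.953). With TMM scaling, that Otogl and Epyc passed in heterozygous cultures and Tectb in wild-type cultures therefore does not show a difference between genotypes. DESeq2 and limma voom called 0 of the 8 as well. With spike-in scaling 7 of the 8 genes and 4069 of all genes passed, with Otos at -1.31 (adjusted p = 0.0397) and Otogl at -1.05 (adjusted p = 0.0329). The median of all genes was -0.56 on that scale, so that Otos lay 0.75 and Otogl 0.49 below it.

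In the order of group means, most neighbouring groups did not differ. For Otos the order ran from wild-type solvent (139 CPM) over heterozygous solvent (106 CPM) and wild-type FK228 (31.0 CPM) to heterozygous FK228 (13.3 CPM), and only the step between heterozygous solvent and wild-type FK228 passed (adjusted p = 0.000141). For Epyc only the step between heterozygous solvent and heterozygous FK228, the next group below, passed. No neighbours passed for Tecta, Tectb, Otoa, Otog, Otogl or Coch.

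After group means were removed, 26 of the 28 pairs of the tested genes (92.9%) had a positive Pearson r over the 16 libraries, with a median of 0.49. Over all pairs of the 5692 genes above 30 CPM, 53.8% were positive, with a median of 0.04. With all 16 libraries Tecta with Otoa and Epyc with Coch reached 0.86 each, and Tectb with Epyc 0.80. The exceptions in that setting involved Otos, at -0.26 with Otogl and -0.17 with Coch. Without heterozygous solvent replicate 4, which was highest of its group for all 8 genes, 21 of the 28 pairs were positive, with a median of 0.35. Over all pairs of the 5692 genes 52.9% were then positive, with a median of 0.03. The points share library and scaling, and r is given as a description. The coefficient of variation within groups had a median of 12.6% to 23.4% over the 8 genes, against 7.24% to 8.81% over the 5692 genes above 30 CPM. The sets are not alike, since the 8 include Otogl, with a mean of 6.60 CPM. The 23.4% was that of heterozygous cultures with solvent, which include replicate 4.

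Over all 16 libraries, which separate by treatment, the genes most like each member in log2 CPM were found by Pearson r. For Tecta they were Muc15 (0.88), Eya1 (0.86) and Unc5b (0.84), and for Epyc Adgrg2 (0.92), Eya1 (0.91) and Rspo2 (0.89). Eya1, a transcriptional regulator of otic development, was in both lists. For Tectb they were Glmp (0.94), Slc12a5 (0.93) and Arl6ip5 (0.91), and for Otos C1qb (0.96), Hp1bp3 (0.96) and Pitpnm2 (0.96). C1qb encodes a complement chain made by macrophages. For Otoa they were Prdm16 (0.86), Ddit3 (0.81) and Cdh2 (0.79), for Otog Rai2 (0.82), Styxl1 (0.82) and Ppp3ca (0.82), for Otogl Mrvi1 (0.90), Abca9 (0.90) and Brcc3 (0.89), and for Coch Ush1c (0.88), Gphn (0.85) and Gng8 (0.84). The lowest of these genes by mean CPM were Slc12a5 (0.572), Mrvi1 (1.40), Pitpnm2 (1.59), Abca9 (2.10) and Styxl1 (2.26).

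Lists of other genes of these matrices are given by counts, to be read beside the 24.7% of all genes that fell in heterozygous and 25.3% in wild-type cultures. Of 6 tectorial membrane collagen genes, which encode the fibrils embedded in the gel, 4 fell with FK228 in heterozygous and 5 in wild-type cultures and 0 rose in either, with median log2 fold changes of -0.81 and -0.70. Col11a2 averaged 187 ± 20.2 CPM with FK228 and 446 ± 28.3 CPM with solvent in heterozygous cultures, and 214 ± 18.8 CPM with FK228 and 384 ± 69.6 CPM with solvent in wild type. Its log2 fold change was -1.25 in heterozygous (adjusted p = 5.41e-08) and -0.85 in wild-type cultures (adjusted p = 5.37e-06). Col2a1, the main fibrillar collagen of the gel, fell by 0.97 in heterozygous (adjusted p = 7.59e-05) and by 0.76 in wild-type cultures (adjusted p = 0.000732) on the log2 scale. Cartilage markers were also present, with mean sums of 3165 to 4125 CPM over the groups. The bulk counts do not show which cells the collagen reads came from, so these falls cannot be assigned to the gel.

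Of 6 genes of otoconial matrix, cupula and bundle attachment, 1 rose and 3 fell in heterozygous cultures, and 0 rose and 3 fell in wild type. Zpld1, a zona pellucida domain protein of the vestibular cupula, averaged 2.88 ± 0.972 CPM with FK228 and 27.5 ± 6.90 CPM with solvent in heterozygous cultures. In wild-type cultures it averaged 3.82 ± 0.619 CPM with FK228 and 24.3 ± 4.59 CPM with solvent. It fell by 3.24 in heterozygous (adjusted p = 4.98e-09) and by 2.67 in wild-type cultures (adjusted p = 2.82e-08) on the log2 scale, and the other falling genes were Sparcl1 and Sparc, matrix proteins of the SPARC family. The gene that rose in heterozygous cultures was Oc90, the main otoconial protein, at 0.40 (adjusted p = 0.0495); with spike-in scaling 0 of the 6 rose. Oc90 averaged 653 to 859 CPM over the groups and is also a marker of vestibular epithelium.

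Of 13 tested relatives of Epyc among the small leucine-rich proteoglycans, 2 rose and 9 fell in heterozygous cultures, and 1 rose and 9 fell in wild type, with medians of -0.63 and -0.54. Ogn fell by 1.36 in heterozygous (adjusted p = 1.35e-08) and by 1.53 in wild-type cultures (adjusted p = 4.84e-09), and Chad by 2.42 (adjusted p = 1.81e-07) and 2.12 (adjusted p = 7.68e-07) in the same order. Aspn fell by 1.75 and 2.19. Without the 2 solvent libraries that stood apart, 8 of the 13 fell in either genotype. The genes that rose, named after their values were seen, were Kera and Optc in heterozygous and Fmod in wild-type cultures, and with spike-in scaling 0 of the 13 rose in either genotype.

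Of 7 relatives of Coch with von Willebrand A domains, 0 rose and 2 fell in heterozygous cultures, and 1 rose and 2 fell in wild type, with medians of -0.11 and 0.04. Vit, a close relative of cochlin, averaged 5.28 ± 0.859 CPM with FK228 and 25.0 ± 7.09 CPM with solvent in heterozygous cultures, and fell by 2.24 (adjusted p = 0.000100). In wild type it averaged 5.92 ± 3.91 CPM with FK228 and 31.3 ± 14.2 CPM with solvent, and fell by 2.41 (adjusted p = 3.68e-05). Matn4, a matrilin, fell by 1.51 in heterozygous and 1.59 in wild-type cultures, and Matn3 rose in wild type (2.25, adjusted p = 0.0174). Without the 2 solvent libraries that stood apart, 1 rose and 3 fell in heterozygous cultures, and 0 rose and 2 fell in wild type. Of 3 basilar membrane matrix genes (Emilin2, Fn1 and Tnc) 2 fell in heterozygous and 3 in wild-type cultures, and 1 and 2 fell without those libraries. None of the genes in the 5 lists passed the test between genotypes or for the interaction.

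**Figure D4:**
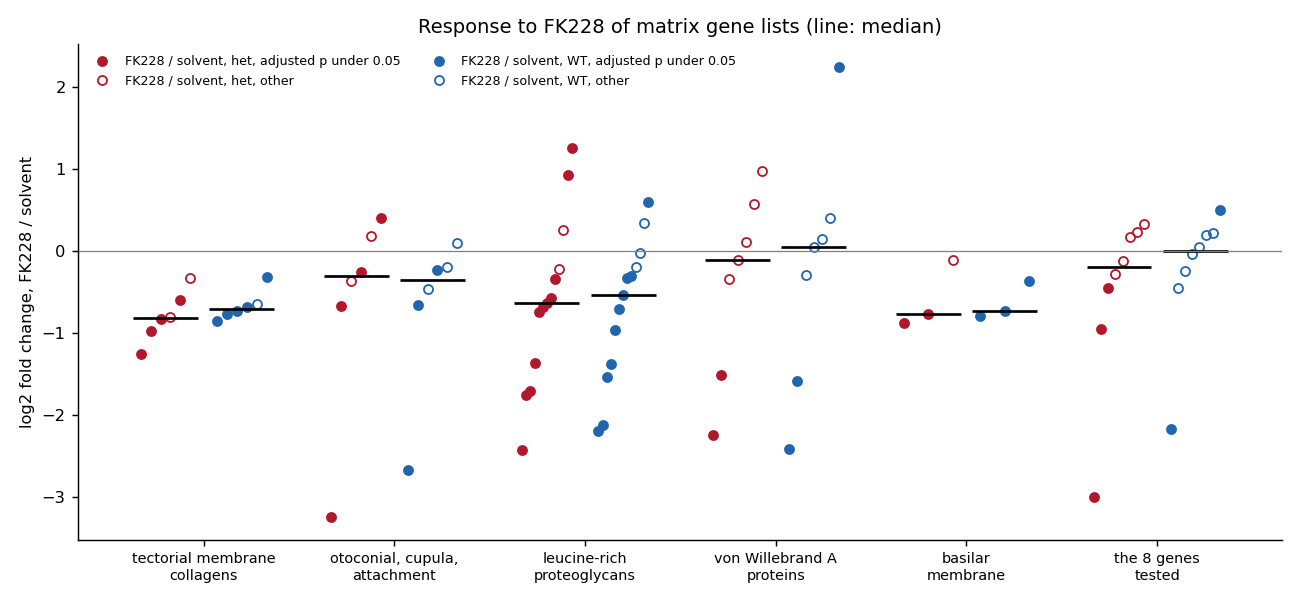
Log2 fold change with FK228 of each gene in 5 lists of matrix genes and of the 8 tested genes, in heterozygous (red) and wild-type (blue) cultures; filled points have an adjusted p under 0.05 and black lines are medians. Most collagen and proteoglycan points lie below 0, while the 8 genes are spread around 0 apart from Otos.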

How the data were processed

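The authors deposited counts of reads per gene for each of 16 libraries, unstranded and by strand, for which the submitters' processing notes name STAR 2.5.2a and GRCm38.p4. Libraries used oligo dT priming, template switching and tagmentation, per the labels' protocols. The authors also deposited a table of DESeq2-normalized signal, from which division by size factors (0.801 to 1.41) could be undone to whole reads for 100% of values within 0.001, so it served as an alternative only. The 92 ERCC rows and 22 transgene and other spike-in rows stayed out of library sizes. Reads in no gene were 10.4% to 20.8%.

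Unstranded counts were tested with edgeR 4.0.16 in R 4.3.3: TMM factors, filterByExpr (minimum count 10, total 15), a quasi-likelihood model of 4 group means with 12 residual degrees of freedom, and Benjamini-Hochberg adjustment over 17125 genes. Counts were also simulated for FK228 in wild type, with 50 of 17125 genes changed at each of 1.5-, 2-, 4- and 8-fold. The test recovered 36% of the genes changed 1.5-fold and 82% of those changed 2-fold. Alternatives used DESeq2 1.42.0, limma 3.58.1, other factors, filters and covariates, counts summed over strands, and each library left out. CPM are TMM-scaled, and CPM of different genes were compared per kilobase of exons in GENCODE M21. Upstream sequences are from RefSeq (GRCm38.p6).

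All 9 genes are named, with the 3 genes of highest r to each and at most 4 of a context list by smallest p. The genes, lists and tests were chosen with earlier results of these data known. Of 114 list symbols 113 were matched.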

Additional observations from a re-analysis of the deposited data

Results flagged for a closer look

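In 32 groups of 4 libraries (8 genes in 4 groups), 2 had a library far from the other 3, where chance alone gives about 1 in 20. Tectb in wild-type cultures with FK228 had 1659 CPM in replicate 7, and its gap to the next library took 0.863 of the range of the group. Tecta in wild-type cultures with solvent had 459 CPM in replicate 3, with a gap of 0.941 of a narrow range whose top was 502 CPM. Both gaps exceed the 95% critical value of Dixon's test for 4 samples. The wild-type calls did not rest on either library: without FK228 replicate 7, as in each other fit with a library left out, Tectb still rose.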

How the results depend on the processing

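Leaving out 1 library at a time, Otos in both genotypes, Tectb in wild type, and Otogl and Epyc in heterozygous cultures kept their calls in 16 of 16 fits. With spike-in scaling 8 of the 8 genes were called for FK228 in heterozygous cultures and 4 in wild type, where 11524 and 6524 of 17125 genes passed. Between genotypes 0 of the 8 were called with solvent and 8 with FK228, where 296 and 12857 genes passed. For the interaction 7 were called, where 4069 genes passed. The median of all genes was then -0.18 between genotypes with solvent, -0.74 with FK228 and -0.56 for the interaction, and 35.1%, 0.747% and 0.221% of calls were higher, against 59.4%, 56.6% and 75.0% with TMM scaling; the cause was not tested. Signs turned under it with FK228 for Tectb (-0.36), Otog (-0.49) and Coch (-0.56) in heterozygous cultures and Otoa (-0.11) in wild type. They turned for Tectb (-0.14) and Coch (-0.084) between genotypes with solvent, for Tecta (-0.67), Epyc (-0.44) and Coch (-0.70) with FK228, and for the Otog interaction (-0.55). All are uncalled values under TMM scaling.

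DESeq2 called 550 genes between genotypes with solvent, 638 with FK228 (1 of the 8 genes) and 29 for the interaction; edgeR called 347, 366 and 4. The interaction count was 2 with limma voom, 10 without a filter and 8 with the share of reads in no gene as a covariate. Tectb rose in heterozygous cultures with limma voom (0.40, adjusted p = 0.0154) and without a filter (0.32, adjusted p = 0.0414), and Epyc fell in wild type in a fit of only those groups (-0.24, adjusted p = 0.0409). Without a filter 1 of the 8 genes passed between genotypes with FK228. In fits of only the groups compared, 0 passed with solvent and 1 with FK228, and no interaction value exists. With that covariate 5 passed for FK228 in heterozygous cultures (Tectb and Coch rose beside the 3 that fell), 3 in wild type (Coch rose as well, at 0.36, adjusted p = 0.00843) and 1 between genotypes with FK228, where 592 genes passed, and signs turned for Otoa (0.091, heterozygous) and Tecta (0.11, wild type). Without the 2 libraries with the fewest reads outside genes, an alternative chosen after seeing the data, 1 passed between genotypes with FK228, the interaction count was 2, and signs turned for Otoa (0.046, FK228 in heterozygous cultures) and Tectb (-0.026, genotype with solvent). That call between genotypes with FK228 was Otos each time.

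Same-numbered replicates did not deviate together (r of -0.23 to 0.17), and the numbers were not used as pairs in the main test. A low r does not show that same-numbered pools came from separate litters. With the replicate number as a block, 211 genes passed between genotypes with solvent, 107 with FK228 (1 of the 8 genes, Otos, adjusted p = 0.00870) and 0 for the interaction, and signs turned for Otoa (-0.080, FK228 in wild type) and the Coch interaction (0.016).

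With 1 library left out, 0 to 1 of the 8 genes passed between genotypes with solvent and 0 to 1 with FK228, where 188 to 421 genes passed, and 2 to 6 genes for the interaction. Uncalled values crossed 0 with FK228 for Otoa (-0.25 to 0.049 in heterozygous cultures, -0.092 to 0.14 in wild type) and Tecta (-0.092 to 0.015 in wild type). Between genotypes they did so with solvent for Otoa (-0.26 to 0.00061), Tectb (-0.15 to 0.15) and Coch (-0.011 to 0.19), and with FK228 for Tecta (-0.016 to 0.16) and Coch (-0.050 to 0.10). For the interaction they did so for Tectb (-0.29 to 0.0090), Otoa (-0.30 to 0.0062), Otog (-0.057 to 0.11) and Coch (-0.15 to 0.053). For Otos the interaction was -1.06 to -0.48. The simulation recovered 36% of 1.5-fold changes, with far fewer genes changed than passed for FK228 in the data (8394 in wild type). That share is thus not the power for these 8 genes, which was not tested, but a change of that size can go uncalled.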
